A study of Mus musculus with 34 samples.

Results

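Blood messenger RNA from 7 wild-type mice given ALY688 together with lipopolysaccharide (the ALY+LPS group) was compared with that from 4 wild-type mice given lipopolysaccharide alone (the LPS group). These 11 libraries were chosen by the treatment label alone, out of 30 with counts and 34 labelled in the series, and each library is 1 numbered mouse. The remaining libraries came from mice given phosphate-buffered saline (PBS) or ALY688 without lipopolysaccharide, and 3 further mice labelled LPS (3, 4 and 5) are not analysed here. All mice in both groups received lipopolysaccharide, so the comparison asks what ALY688 added to that challenge. Neither the doses nor the time and order of the injections, nor the sex or age of the mice, could be taken from the labels. The series text calls the model sublethal and names anti-inflammatory action as the question.

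Lipopolysaccharide is a glycolipid on the surface of Gram-negative bacteria. It is sensed by TLR4 on monocytes, macrophages and neutrophils, which then switch on cytokine genes through NF-kB and interferon genes through IRF3. In mouse blood such a challenge is known to draw lymphocytes out of the circulation and to bring neutrophils in from the marrow. ALY688 is named by the series as an agonist of the adiponectin receptors, the membrane proteins AdipoR1 and AdipoR2 through which the fat cell hormone adiponectin acts on AMPK and PPAR-alpha signalling.

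No gene passed the test. Of 12741 genes tested with edgeR's quasi-likelihood test, 0 were called at a Benjamini-Hochberg adjusted p below 0.05 (0.000%), and the smallest adjusted p was 0.913. At an unadjusted p below 0.05 there were 142 genes higher with ALY688 (1.11%) and 322 lower (2.53%), 464 in all, where 637 would be found if all genes were independent and none differed. The 2 groups did not overlap at all for 13 genes higher with ALY688 (0.102%) and 22 lower (0.173%). Of the 330 possible assignments of the mice to groups of these sizes, a share of 0.00303 separates a gene in a given direction. The shares of 0.102% and 0.173% are both smaller than that. The median log2 fold change over all genes tested was -0.00, with 49.9% of genes above 0.

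The 95% interval of each fold change, not adjusted over genes, gives the range of differences compatible with these 11 mice. The median half-width was 0.53 on the log2 scale, a factor of 1.45. The interval lay wholly within 2-fold either way for 8580 genes, 67.3% of those tested. It lay within 1.5-fold for 35.6%, within 3-fold for 87.4% and within 4-fold for 93.7%. A fall by 2-fold or more lay outside the interval for 10843 genes (85.1%), and a rise by 2-fold or more lay outside it for 10018 (78.6%). These shares rest on TMM scaling: without it the median of all genes was -0.49, the interval lay within 2-fold for 2.70% of genes, and 6 genes were higher and 414 lower at an unadjusted p below 0.05. DESeq2 gave 0 calls, 269 higher and 366 lower at that p, and 69.8% of intervals within 2-fold.

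**Figure D1:**
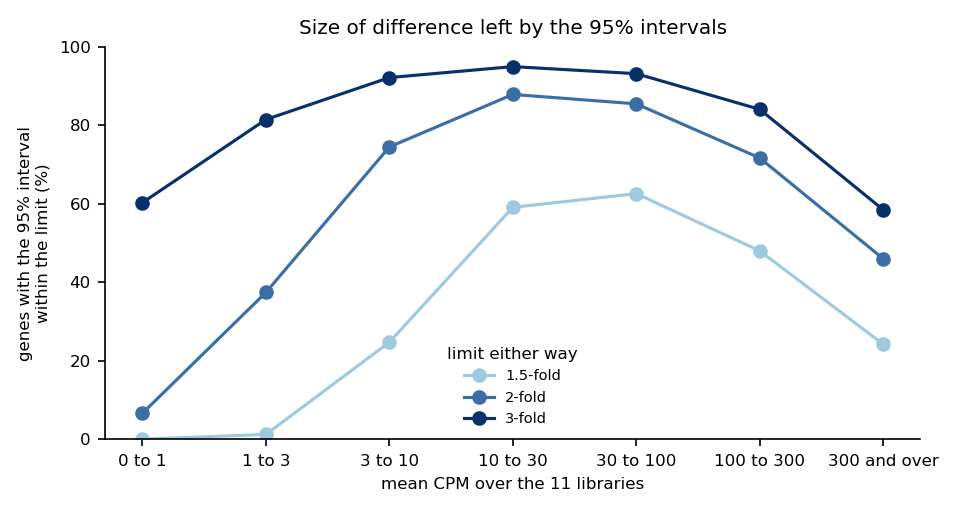
Percentage of tested genes (vertical axis) whose 95% interval lies within 1.5-, 2- or 3-fold either way, by mean CPM (counts per 1000000) over the 11 libraries (horizontal axis). The 2-fold line climbs from 6.58% below 1 CPM to 87.9% between 10 and 30 CPM and comes down to 46.0% at 300 CPM and over.

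Precision depended on the level of a gene. Levels are given in counts per 1000000 (CPM) after TMM scaling over the 11 libraries. For the 1064 genes with a mean under 1 CPM the interval lay within 2-fold for 6.58%, against 87.9% of genes between 10 and 30 CPM. Above 300 CPM the share was 46.0% of 289 genes, and no tested gene of the erythroid, globin or platelet lists, many of which are that abundant, had an interval within 2-fold.

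Libraries held 10914821 to 17338214 counts with LPS and 10087871 to 15349120 with ALY+LPS. Globin genes took 28.4%, 18.5%, 43.7% and 31.0% of the counts in LPS mice 2, 6, 7 and 8, and from 26.3% to 54.3% with a median of 39.8% in the ALY+LPS mice. The difference in means, 10.1 percentage points, gave an exact two-sided permutation p of 0.173 over 330 assignments (adjusted 0.239 over 2 measures, smallest possible 0.00303). The number of genes with a count was 1212 lower on average with ALY+LPS (exact permutation p = 0.239, adjusted 0.239). ALY+LPS mice 6 and 8 stood apart, with 53.6% and 54.3% globin, the 2 lowest TMM factors and summed erythroid levels of 119353 and 263026 CPM against at most 68736 CPM in the other 9 libraries. Defining markers of T cells (Cd3e), NK cells (Ncr1), neutrophils (Csf3r), monocytes (Csf1r), platelets (Pf4) and red cells (Alas2) were found in all 11 libraries. Of markers of other tissues Krt5 was at 0 in all 11, Alb and Ckm were at or below 0.086 CPM, and Col1a1 reached 10.7 CPM in LPS mouse 2.

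T cells read antigen through a receptor made of variable alpha and beta chains held by the CD3 proteins, with CD8 or CD4 as co-receptor. NK cells carry inhibitory and activating Ly49 and NKG2 receptors instead, and kill with the perforin and granzymes that cytotoxic T cells also use. Cells that enter division first switch on E2F targets for DNA synthesis and then the mitotic genes that the DREAM and MuvB complexes hold down in resting cells. The lists for these 3 systems held 68, 40 and 142 gene symbols, of which 62, 39 and 140 were tested. The low-count filter removed 6 T cell members (among them Dapl1, Pdcd1, Il2, Sox13 and Il17a) and 2 cell cycle members (Cdkn1c and Cdkn2a). The 1 NK symbol without a match, Cd244, is an older name of Cd244a, which is on the list and was tested.

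Transcripts of the T cell receptor complex were estimated higher with ALY688 in 13 of 16 members, with a median log2 fold change of 0.48 (-0.12 without TMM factors), and 0 were called. In 5 of the 16 the unadjusted p was below 0.05, all 5 higher, where 1.11% of all genes were. The list was chosen with earlier results of these data known, so this excess is no independent evidence. In blood messenger RNA, fewer cells of a type and less RNA per cell cannot be told apart. Trac, the constant region of the receptor's alpha chain, had the smallest p of all genes that were higher. Its level was 9.10, 8.83, 6.30 and 7.21 CPM in LPS mice 2, 6, 7 and 8, and between 10.5 and 14.9 CPM, median 11.9, in the 7 ALY+LPS mice. Every ALY+LPS mouse lay above every LPS mouse, as in 0.102% of genes tested, a smaller share than random assignment of the mice gives. The log2 fold change was 0.65 ± 0.15 (SE, 95% interval 0.31 to 0.98), and edgeR's quasi-likelihood test gave an unadjusted p of 0.00109 and an adjusted p of 0.913.

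Cd8b1, the beta chain of the CD8 co-receptor, was at 6.25, 7.48, 5.69 and 5.26 CPM with LPS and at 6.52 to 14.3 CPM, median 11.3, with ALY+LPS. Only ALY+LPS mouse 1 fell inside the LPS range. Its log2 fold change was 0.80 ± 0.23 (SE, 95% interval 0.30 to 1.30). The alpha chain gene Cd8a had an estimate of 0.53 (0.09 to 0.98), Cd4 0.46 (-0.03 to 0.94), the CD3 epsilon chain gene Cd3e 0.47 (-0.04 to 0.98) and Cd5, an inhibitory surface receptor of T cells, 0.86 (0.27 to 1.46). For all 16 members the interval excluded a 2-fold fall, and for 11 it also excluded a 2-fold rise.

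**Figure D2:**
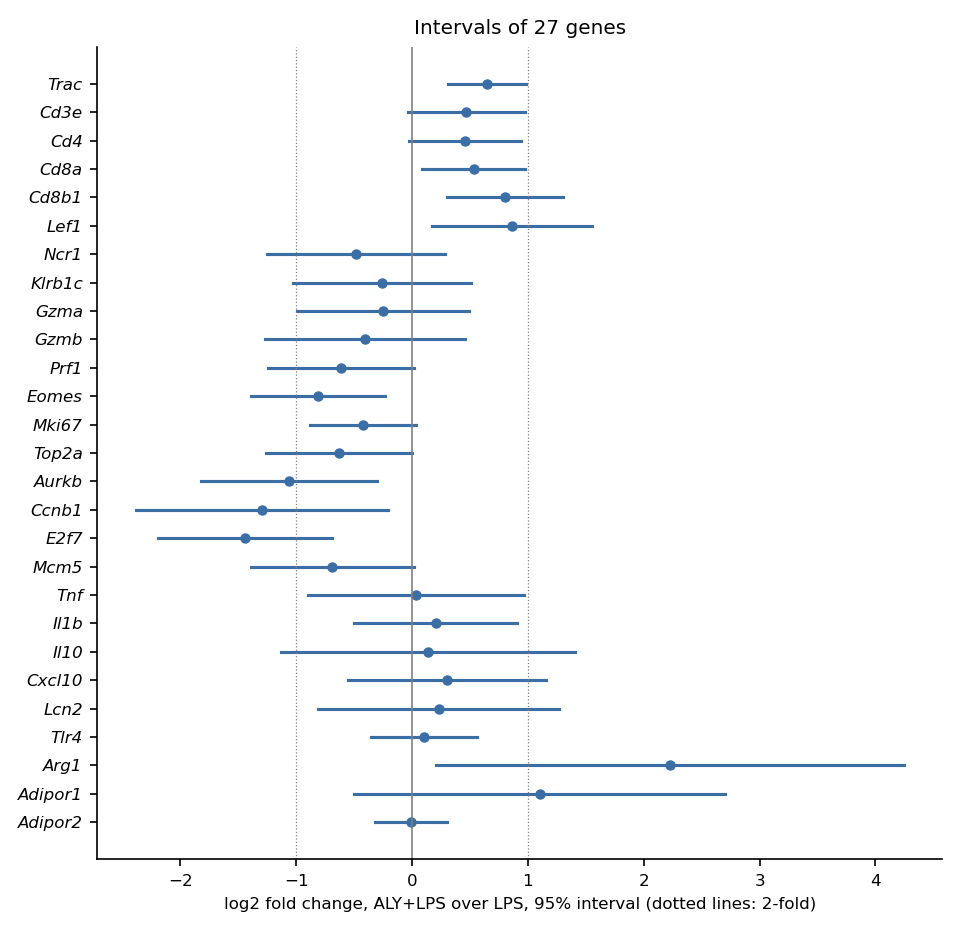
Log2 fold change of 27 genes, ALY+LPS over LPS (point), with its 95% interval (line), in the order T cell, NK and cytotoxic, cell cycle, inflammatory and adiponectin receptor genes; dotted lines mark 2-fold. With TMM scaling the 6 T cell genes all have estimates above 0 (without it Cd3e, Cd4 and Cd8a do not), the 6 NK and 6 cell cycle genes below 0, and Adipor2 has the narrowest interval, -0.32 to 0.30.

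Naive T cell factors, among them transcription factors and receptors for lymph node homing and egress, had 10 of 11 tested members estimated higher. Their median was 0.60 (-0.03 without TMM factors). A 2-fold fall lay outside the interval for all 11, and a 2-fold rise for 3. Lef1, a transcription factor of naive T cells, was at 5.00, 7.71, 5.94 and 4.98 CPM with LPS and at 5.53 to 17.1 CPM, median 12.7, with ALY+LPS. ALY+LPS mice 3, 4, 6 and 8 lay above the LPS range and mice 1, 7 and 10 inside it. The estimate for Lef1 was 0.86 ± 0.32 (SE), that for the lymph node homing receptor Ccr7 was 0.78, for the egress receptor S1pr1 0.78 and for the transcription factor Tcf7 0.60. S1pr1 stood highest in ALY+LPS mouse 4, at 37.6 CPM (next 19.0 CPM among the ALY+LPS mice), which also had the highest B cell score. Leaving out 1 mouse at a time gave medians of the naive list from 0.45 without ALY+LPS mouse 3 to 0.71 without ALY+LPS mouse 7. The part of B cells in these values was not tested. Signalling genes of T cells split into 11 higher and 5 lower of 16, with a median of 0.13 (-0.35 without TMM factors). Among them the adaptor gene Trat1 had an estimate of 1.35, the thymocyte selection gene Themis 1.00 and Sh2d2a -0.57. Activated and regulatory T cell genes split into 9 higher and 5 lower of 14, with a median of 0.13 (-0.38 without TMM factors). Cd69 was at 0.72, Foxp3 at 1.00, Ctla4 at 0.66 and Tnfrsf9 at -0.72. The intervals of this list were wide, with a median half-width of 0.93, and 2 of the 14 lay within 2-fold. A 2-fold rise lay outside the interval for 6 of the 14 and a 2-fold fall for 9. The 5 tested gamma delta T cell genes were at low levels, at most 3.92 CPM in the mean of either group, and their estimates ran from -0.74 to 0.31.

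The T cell receptor score, the mean log2 CPM of the 16 members, was 3.38, 3.44, 2.80 and 2.87 in LPS mice 2, 6, 7 and 8 and ran from 3.25 to 3.74 with ALY+LPS. LPS mice 2 and 6 lay inside the ALY+LPS range and LPS mice 7 and 8 below all of it. In 8 of the 16 members LPS mice 7 and 8 were the 2 lowest of the 11 libraries, against 2.88% of all genes tested. Both mice were picked by their score over these members, so an excess over that share was built in. The median estimate was 0.34 without LPS mouse 8 and 0.55 without LPS mouse 2 or without ALY+LPS mouse 7. Without TMM factors, where the median of all genes was -0.49, the list's -0.12 lay 0.37 above that median.

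**Figure D3:**
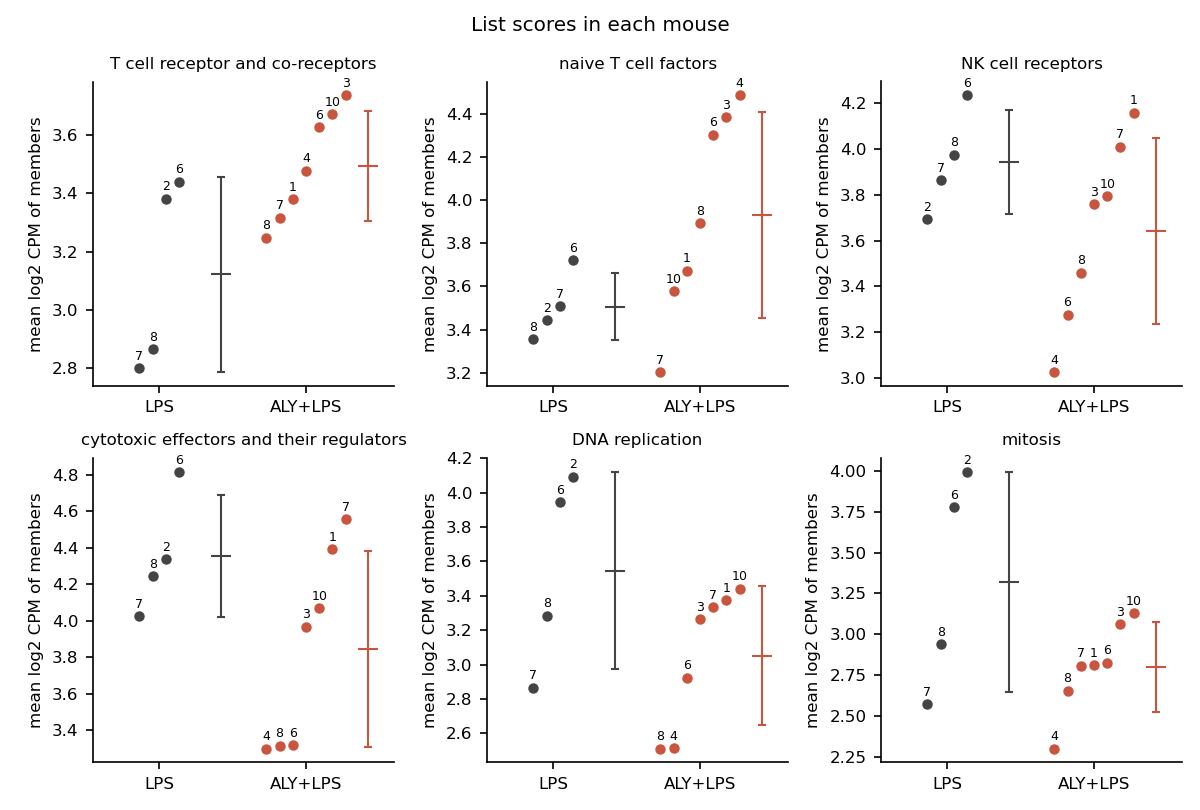
Mean log2 CPM of the tested members of 6 lists (vertical axes) in each LPS and ALY+LPS mouse (points, numbered by mouse), with the group mean and SD as bars; the vertical axes do not start at 0. LPS mice 2 and 6 lie above all other mice for DNA replication and mitosis, LPS mice 7 and 8 below all other mice for the T cell receptor list, and ALY+LPS mice 4, 6 and 8 are lowest for both NK and cytotoxic lists.

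NK cell receptor genes had estimates below 0 in 18 of 20 tested members, with a median of -0.27, and cytotoxic effectors and their regulators in 17 of 19, with a median of -0.44. None was called, and 3 of these 39 had an unadjusted p below 0.05, all lower, against 2.53% of all genes. Both lists were chosen with earlier results of these data known. Klra8 encodes Ly49H, the activating receptor for a protein of murine cytomegalovirus. It was at 12.9, 23.0, 15.1 and 16.1 CPM with LPS and at 5.85 to 14.9 CPM, median 7.82, with ALY+LPS. ALY+LPS mouse 1 was the only one inside the LPS range. The log2 fold change of Klra8 was -0.85 ± 0.25 (SE, 95% interval -1.39 to -0.30). Klra8 and its neighbour Klra4, with an estimate of -0.48, are close copies between which reads could be split, so both values are uncertain. Klre1 and Klrc2, both of the NKG2-like receptor cluster, had estimates of -0.45 and -0.53.

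Eomes, a transcription factor of mature NK and memory CD8 T cells, was at 19.1, 32.5, 15.3 and 17.5 CPM with LPS and at 6.35 to 17.6 CPM, median 11.7, with ALY+LPS. Its estimate was -0.81 ± 0.27 (SE, 95% interval -1.39 to -0.24), and ALY+LPS mice 1 and 7 lay inside the LPS range. Xcl1, a chemokine of NK cells that draws dendritic cells, was at 3.55 and 4.36 CPM in LPS mice 2 and 6 and at 0.518 to 1.37 CPM in the other 9 mice. Its estimate was -1.53 ± 0.42 (SE). The perforin gene Prf1 had an estimate of -0.61 (-1.25 to 0.02), Nkg7 of the cytotoxic granule -0.53, the granzyme genes Gzmb -0.41 (-1.27 to 0.46) and Gzma -0.25 (-1.0 to 0.49). The NK receptor genes Ncr1 and Klrb1c, which define the lineage in blood, had estimates of -0.48 (-1.25 to 0.28) and -0.26 (-1.03 to 0.51).

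A 2-fold rise lay outside the interval for 37 of the 39 NK and cytotoxic members, and a 2-fold fall for 19. The NK receptor score was 3.69, 4.23, 3.86 and 3.97 in LPS mice 2, 6, 7 and 8 and ran from 3.03 to 4.16 with ALY+LPS. ALY+LPS mice 4, 6 and 8, at 3.03, 3.28 and 3.46, were below all LPS mice, and the other 4 lay inside the LPS range. These 3 mice were the 3 lowest libraries for 10 of 20 NK receptor genes and 12 of 19 cytotoxic genes, against 3.23% of all genes tested. The 3 mice were picked by their scores over these same genes, so an excess over that share was built in. The globin shares of ALY+LPS mice 4, 6 and 8 were 39.8%, 53.6% and 54.3%. ALY+LPS mouse 10 and LPS mouse 7, with globin shares of 44.2% and 43.7%, had NK receptor scores of 3.79 and 3.86. With the globin percentage as a covariate the medians were -0.05 for NK receptors and -0.07 for cytotoxic genes. Without ALY+LPS mice 6 and 8 they were -0.17 and -0.27, and without LPS mouse 6 they were -0.12 and -0.26. Other settings gave larger differences. The medians were -0.38 and -0.63 without ALY+LPS mouse 7, and -0.46 and -0.56 with the replicate number as a block. The part of red cell transcripts in the NK values was not tested beyond these fits.

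Cell cycle transcripts held the most members with small p. All 42 tested genes of DNA replication were estimated lower with ALY688, with a median of -0.52, and 65 of 70 mitotic genes, with a median of -0.69. None was called. The unadjusted p was below 0.05 for 9 of the 42 and 29 of the 70, all lower, against 2.53% of all genes. These lists were chosen with earlier results of these data known, so the excess is no independent evidence. The mitotic count of 29 was 3 without LPS mouse 2 and 52 without LPS mouse 7. The G1 cyclins, kinases and inhibitors had 7 members higher and 8 lower of 15, with a median of -0.05 and no member at an unadjusted p below 0.05.

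E2f7 encodes an atypical E2F factor that represses E2F targets late in S phase, and had the smallest p of all genes that were lower. Its level was 4.70, 4.99, 1.45 and 1.89 CPM in LPS mice 2, 6, 7 and 8 and 0.866 to 1.62 CPM, median 1.20, with ALY+LPS. LPS mice 2 and 6 lay apart from all others and LPS mouse 7 lay inside the ALY+LPS range. The log2 fold change was -1.44 ± 0.35 (SE, 95% interval -2.19 to -0.69), with an unadjusted p of 0.00113 and an adjusted p of 0.913 from edgeR. Its partner E2f8 was at 16.4, 12.2, 7.87 and 6.86 CPM with LPS and 2.31 to 6.87 CPM, median 6.13, with ALY+LPS, an estimate of -1.0 ± 0.30 (SE). LPS mice 2, 6 and 7 lay above every ALY+LPS mouse for E2f8. The activator E2f1 had an estimate of -0.60 and the repressor E2f6 of -0.46. Of all 13 members of the E2F and retinoblastoma family 9 were estimated lower, these 4 with an unadjusted p below 0.05, and 4 higher (2 without TMM factors), with a median of -0.25. The 4 estimated higher, named after their values were seen, were Tfdp2, a dimer partner of the E2F factors, at 1.74 (-0.28 to 3.77), the activator E2f2 at 0.83 (-0.54 to 2.20), Rb1, the retinoblastoma gene, at 0.50 (-0.42 to 1.41) and E2f5 at 0.34 (-0.39 to 1.07). Tfdp2, E2f2 and Rb1 had their 2 highest levels in ALY+LPS mice 8 and 6.

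Espl1, the gene of separase, which cuts cohesin at anaphase, was at 21.2, 29.3, 8.72 and 12 CPM with LPS and at 6.16 to 12 CPM, median 8.52, with ALY+LPS. Its estimate was -0.97 ± 0.29 (SE, 95% interval -1.59 to -0.34). Again LPS mice 2 and 6 were high, and LPS mouse 7 lay inside the ALY+LPS range. E2f7, E2f8 and Espl1 are shown because, of the named members of the cell cycle lists, they are the 3 with the smallest p whose promoters hold a motif of the 2 kinds of site through which this programme is known to be controlled. One is the CHR element, searched as TTTGAA or TTCGAA, and the other the E2F site, searched as TTTCCCGC, TTTGGCGC or TTTCGCGC, on both strands, along with CCAAT boxes. Kifc5b, a mitotic gene with a smaller p than E2f8, held neither the CHR nor the E2F motif. The 250 bases before the RefSeq start of each gene in GRCm38.p6 follow, read 5′ to 3′ on the strand of the gene, with every motif match in capitals. E2f7 lies on the forward strand at chr10:110745189-110745438, E2f8 on the reverse strand at chr7:48881597-48881846 and Espl1 on the forward strand at chr15:102296043-102296292.
E2f7: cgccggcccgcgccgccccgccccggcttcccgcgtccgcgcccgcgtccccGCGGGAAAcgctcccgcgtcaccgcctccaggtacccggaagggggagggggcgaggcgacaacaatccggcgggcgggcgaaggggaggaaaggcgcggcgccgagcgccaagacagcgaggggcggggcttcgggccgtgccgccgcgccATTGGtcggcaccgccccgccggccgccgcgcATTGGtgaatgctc
E2f8: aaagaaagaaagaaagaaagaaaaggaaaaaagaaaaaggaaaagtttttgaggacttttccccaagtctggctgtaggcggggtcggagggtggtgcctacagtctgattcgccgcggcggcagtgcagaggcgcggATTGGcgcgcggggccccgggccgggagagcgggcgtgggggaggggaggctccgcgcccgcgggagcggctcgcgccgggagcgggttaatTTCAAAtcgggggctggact
Espl1: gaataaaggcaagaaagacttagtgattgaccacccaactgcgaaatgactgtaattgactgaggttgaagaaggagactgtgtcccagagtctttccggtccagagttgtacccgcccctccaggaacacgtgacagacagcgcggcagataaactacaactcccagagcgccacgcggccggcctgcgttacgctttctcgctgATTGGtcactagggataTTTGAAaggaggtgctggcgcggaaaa
E2f7 holds 1 E2F site 198 to 191 bases before the start and CCAAT boxes at 46 to 42 and 14 to 10. E2f8 and Espl1 each hold a CHR element close to the start, at 20 to 15 and 27 to 22 bases, with a CCAAT box upstream at 112 to 108 and 44 to 40. Of 27025 mouse genes with a RefSeq promoter of this length, 17.4% held a CHR element, 1.6% an E2F site and 34.5% a CCAAT box. Of the mitotic genes 56 of 70 had a promoter in the table, and 35.7% of these held a CHR element, 7.1% an E2F site and 71.4% a CCAAT box. Of the replication genes 34 of 42 had one, with 17.6%, 26.5% and 61.8%. A match is a string of letters and shows no binding.

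Among the other members named, Aurkb, the kinase of the chromosomal passenger complex, was at 21.1, 18.8, 6.42 and 9.04 CPM with LPS and at 3.24 to 9.96 CPM, median 6.79, with ALY+LPS. Ccnb1, the cyclin that drives entry into mitosis, was at 22.8, 16.3, 5.94 and 5.15 CPM with LPS and at 1.37 to 7.73 CPM, median 6.33, with ALY+LPS. For both genes LPS mice 7 and 8 lay inside the ALY+LPS range and LPS mice 2 and 6 far above it. The estimates were -1.06 (-1.82 to -0.30) for Aurkb and -1.30 (-2.38 to -0.21) for Ccnb1. Those for the kinesin genes were -1.17 for Kif2c, -0.97 for Kifc1 and -0.92 for Kifc5b; the last 2 are near-identical copies whose reads may be split. Kifc5b was 1 of 2 mitotic genes, of the 22 genes in all, for which every ALY+LPS mouse lay below every LPS mouse. Of the replication genes, Tk1, of thymidine salvage, had an estimate of -0.75, Uhrf1, which maintains DNA methylation at forks, -0.92, Dtl -0.87, Rrm2, of ribonucleotide reductase, -0.83 and the helicase subunit Mcm5 -0.69 (-1.39 to 0.02). The proliferation markers Mki67 and Top2a had estimates of -0.42 (-0.88 to 0.03) and -0.63 (-1.26 to 0.00).

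**Figure D4:**
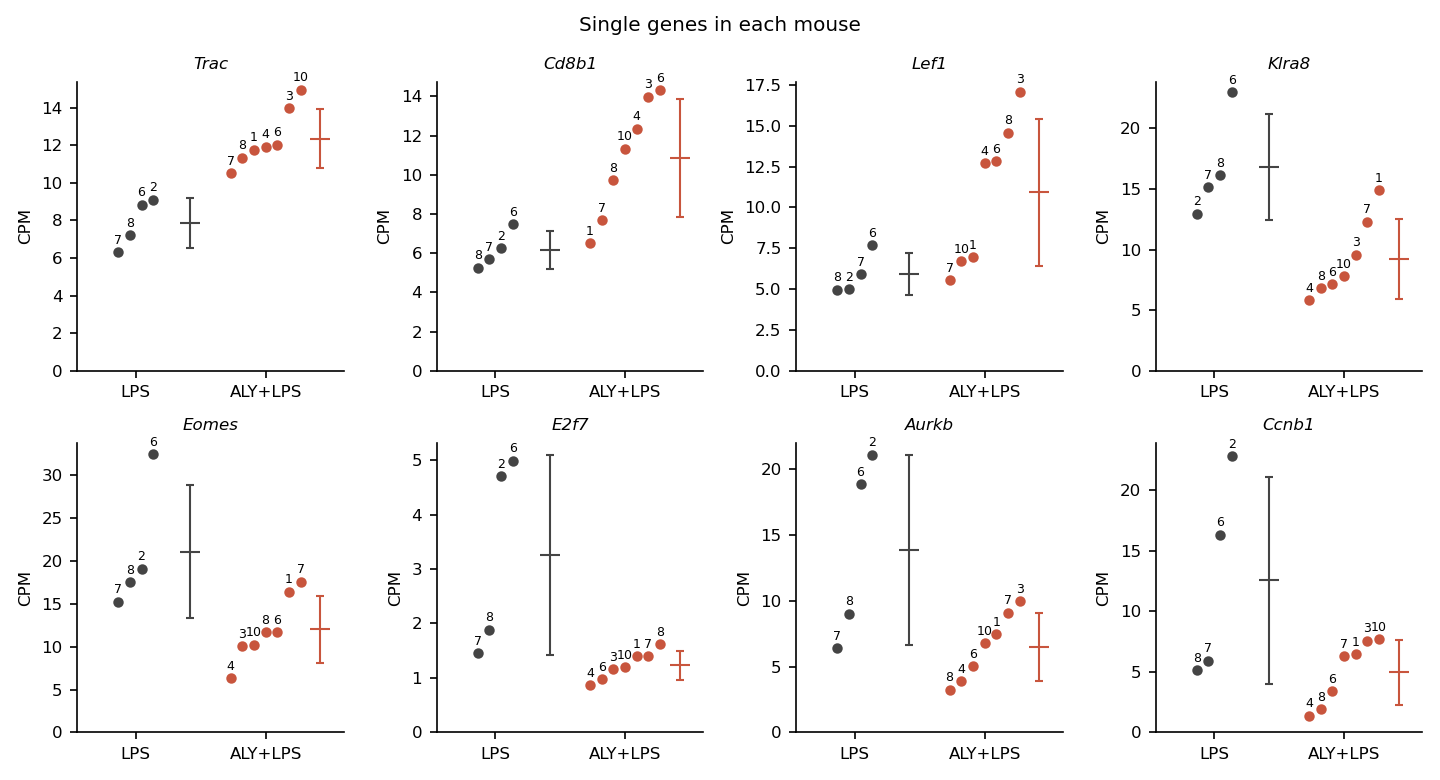
CPM (vertical axes, from 0) of 8 genes in each LPS and ALY+LPS mouse (points, numbered by mouse), with the group mean and SD as bars. Trac separates the groups fully, while for E2f7, Aurkb and Ccnb1 LPS mice 2 and 6 lie above the rest and LPS mouse 7 is within the ALY+LPS range.

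The cell cycle difference rested on LPS mice 2 and 6. The mitosis score was 3.99, 3.78, 2.57 and 2.94 in LPS mice 2, 6, 7 and 8 and ran from 2.30 to 3.13 with ALY+LPS, and the replication score was 4.09, 3.94, 2.87 and 3.28 against 2.51 to 3.44. LPS mice 2 and 6 were the 2 highest of the 11 libraries for 56 of 70 mitotic and 33 of 42 replication genes, against 11.8% of all genes tested. These mice were picked by their scores over the same genes, so an excess over that share was built in. LPS mice 7 and 8 both lay within the ALY+LPS range for 51 of the 70 and 34 of the 42, against 64.5%. Without LPS mouse 2 the median of the mitotic genes was -0.42 and 3 had an unadjusted p below 0.05, and without LPS mouse 6 it was -0.52 with 8. Without LPS mouse 7 it was -0.92 with 52, and without LPS mouse 8 it was -0.85 with 40. The median of the replication genes ran from -0.31 without LPS mouse 2 to -0.72 without LPS mouse 7. With the globin percentage as a covariate the medians were -0.46 for mitosis and -0.22 for replication, and 4 and 1 members had an unadjusted p below 0.05. With the replicate number as a block they were -0.39 and -0.38, and 0 members of either list did. LPS mouse 2 also stood out for Prtn3, an early granule gene of neutrophil precursors, at 84.2 CPM against at most 4.82 CPM in the other 10 mice, and LPS mouse 6 had the lowest globin share of the 11 mice. The score of the immature neutrophil granule list was 7.43, 5.19, 6.53 and 5.91 in LPS mice 2, 6, 7 and 8. It ran from 4.87 to 6.78 with ALY+LPS, so LPS mouse 2 was highest and LPS mouse 6 the lowest LPS mouse. The part of precursor cells in the cell cycle values was not tested.

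The 5 mitotic genes estimated higher, named after their values were seen, were Ube2c, Nusap1, Pttg1, Gtse1 and Smc4. Ube2c, Nusap1, Pttg1 and Gtse1 had their 2 highest levels in ALY+LPS mice 6 and 8, the libraries with the most erythroid RNA. Ube2c, a ubiquitin-conjugating enzyme of the anaphase-promoting complex, was at 2613 CPM in ALY+LPS mouse 8 and 1160 CPM in mouse 6 against 75.2 to 647 CPM in the LPS mice. Without these 2 mice the estimates for Ube2c, Pttg1 and Gtse1 were -0.23, -0.19 and -0.31. The estimate for Nusap1 stayed above 0, with levels of 26.0 to 62.5 CPM in the remaining ALY+LPS mice and 22.7 to 68.3 CPM with LPS. For 130 of the 140 tested cell cycle genes a 2-fold rise lay outside the interval, and for 49 a 2-fold fall did. For all 42 replication genes a 2-fold rise lay outside it, and for 13 a 2-fold fall did. Each interval is symmetric about its estimate on the log2 scale, so this imbalance reflects estimates below 0 and not a tighter bound on 1 side.

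Differences of 2 scores within 1 mouse cancel the scaling of its library, apart from the prior count. The T cell receptor score minus the mitosis score was -0.61, -0.34, 0.23 and -0.07 in LPS mice 2, 6, 7 and 8 and 0.51 to 1.18, median 0.59, in the ALY+LPS mice. All 7 ALY+LPS mice lay above all 4 LPS mice, and the low values of LPS mice 2 and 6 came with high mitotic scores and those of LPS mice 7 and 8 with low T cell scores. This was 1 of 5 such differences computed, and it pairs a list with a median above 0 with the list of the lowest median among the cell cycle lists. The other 4 overlapped, as did the score of every list taken alone. The T cell receptor score minus the NK receptor score was -0.31, -0.79, -1.06 and -1.11 with LPS and -0.78 to 0.45 with ALY+LPS. The NK receptor score minus the mitosis score was -0.30, 0.45, 1.29 and 1.03 with LPS and 0.45 to 1.34 with ALY+LPS. The T cell receptor score minus the B cell score ran from -1.23 to -0.64 with LPS and from -2.33 to -0.00 with ALY+LPS, and the B cell score minus the NK receptor score from -0.42 to 0.92 and from -0.55 to 2.78.

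**Figure D5:**
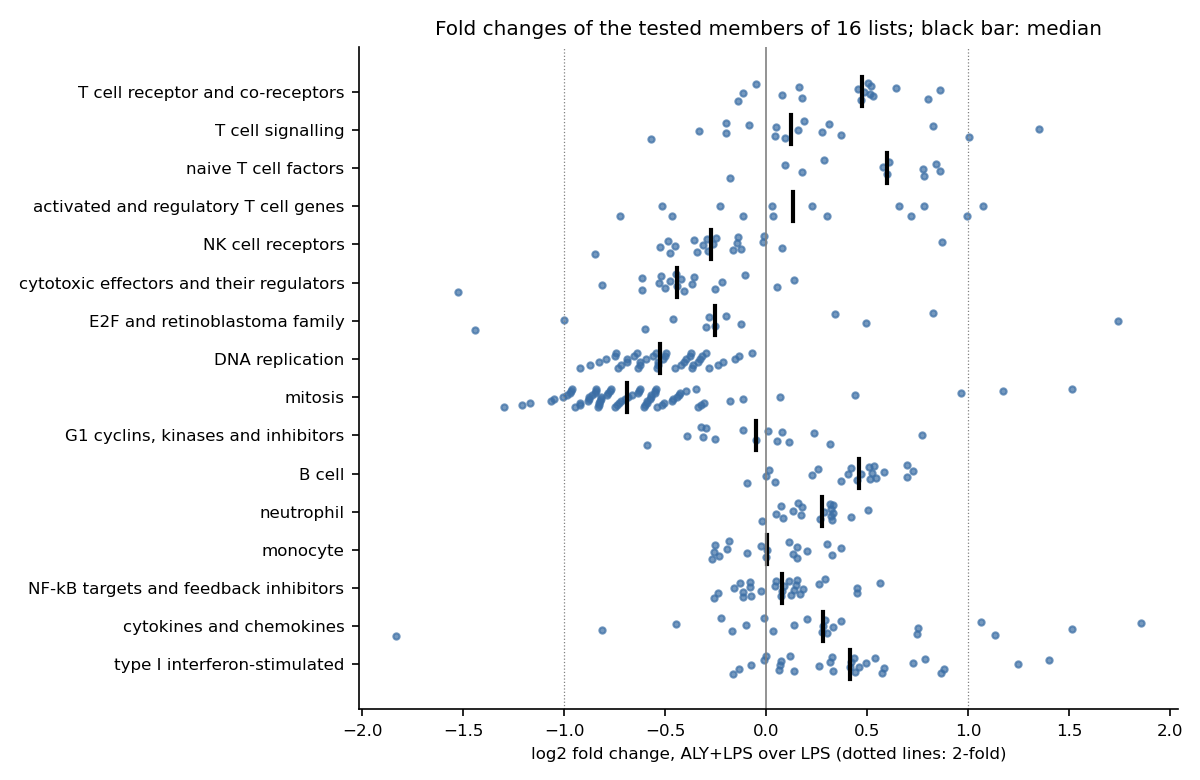
Log2 fold change, ALY+LPS over LPS (horizontal axis), of every tested member (points) of 16 gene lists, with the list median as a black bar and dotted lines at 2-fold. Medians run from -0.69 for mitosis to 0.60 for naive T cell factors, and the monocyte median lies at 0.00.

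Inflammatory transcripts were estimated in both directions, and none was called. Of 27 NF-kB targets and feedback inhibitors 17 were estimated higher and 10 lower, with a median of 0.08 (-0.35 without TMM factors), and a 2-fold fall lay outside the interval for all 27. Of 22 tested cytokines and chemokines 15 were higher and 7 lower, with a median of 0.28 (-0.20 without TMM factors). Their estimates ran from -1.83 to 1.86, and a 2-fold fall lay outside the interval for 18 of the 22 and a 2-fold rise for 12. Tnf, the gene of tumour necrosis factor, was at 19.2, 12.4, 30.9 and 34.6 CPM with LPS and at 6.79 to 41.6 CPM, median 19.9, with ALY+LPS. The ALY+LPS mice spanned the whole LPS range, and the estimate for Tnf was 0.04 (-0.90 to 0.97). Il1b, the gene of interleukin-1 beta, was at 429, 223, 723 and 731 CPM with LPS and at 402 to 758 CPM, median 635, with ALY+LPS, an estimate of 0.20 (-0.50 to 0.91). For both cytokines a 2-fold fall lay outside the interval.

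Il6 did not pass the filter, with 5, 3, 0 and 4 counts in the LPS libraries and 41 and 23 counts in ALY+LPS mice 1 and 7 against 0 to 3 in the other 5. The anti-inflammatory cytokine gene Il10 had an estimate of 0.14 with a wide interval (-1.13 to 1.40), and the chemokine gene Cxcl10 of 0.30 (-0.56 to 1.16). Il1a had an estimate of 1.13 and Ccl4, a chemokine that NK cells also make, of -0.81. Tlr4, the receptor for lipopolysaccharide, had an estimate of 0.10 (-0.35 to 0.56) and Lcn2, a neutrophil and acute phase protein gene, of 0.23 (-0.81 to 1.27). Type I interferon-stimulated genes were estimated higher in 24 of 29, with a median of 0.42 (-0.08 without TMM factors), and genes induced by interferon-gamma in 12 of 22, with a median of 0.08 (-0.37 without). A 2-fold fall lay outside the interval for 28 of the 29 and for 18 of the 22. Without ALY+LPS mice 6 and 8 the median of the type I interferon list was 0.07. None of them passed the test.

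Of 14 tested genes of alternative macrophage activation 7 were higher and 7 lower. Arg1, which turns arginine into ornithine, was at 3.65, 7.66, 3.15 and 1.32 CPM with LPS and at 2.28 to 50.9 CPM, median 9.06, with ALY+LPS. Its estimate of 2.23 had an interval from 0.21 to 4.24, and ALY+LPS mice 1, 4 and 7, at 50.9, 42.5 and 18.7 CPM, were far above the others. The receptor gene Adipor2 was at 65.5, 60.8, 98.6 and 77.3 CPM with LPS and at 67.3 to 81.8 CPM, median 74.8, with ALY+LPS. Its estimate was -0.01 (-0.32 to 0.30), so the interval for Adipor2 lay within 1.5-fold. Adipor1 had an estimate of 1.10 (-0.50 to 2.70), and its 2 highest levels, 7110 and 3231 CPM, were in ALY+LPS mice 8 and 6, without which the estimate was -0.04. Of the 19 tested genes of adiponectin signalling 11 were higher and 8 lower, with a median of 0.05, and for 14 the interval lay within 2-fold.

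Among other blood cell types, B cell genes were estimated higher in 18 of 20, with a median of 0.46 (-0.26 without TMM factors), and ALY+LPS mice 4 and 8 had the highest B cell scores. Without ALY+LPS mouse 4 the B cell median was -0.06. Neutrophil genes were higher in 17 of 18, with a median of 0.28 (-0.03 without TMM factors), and LPS mouse 6 had the lowest neutrophil score of all. The neutrophil median was 0.02, with 10 of 18 higher, without LPS mouse 6, 0.11 without LPS mouse 2, 0.17 without ALY+LPS mouse 1 and 0.55 without LPS mouse 7, and 0.15 with the globin covariate. Monocyte genes were higher in 10 of 18, with a median of 0.00, and for 16 of the 18 the interval lay within 2-fold. All 26 tested erythroid genes, all 7 globin genes and all 20 platelet genes were estimated higher, with medians of 1.33, 1.18 and 0.52 (0.48, 0.33 and -0.07 without TMM factors), and none was called. Without ALY+LPS mice 6 and 8 these medians were 0.02, -0.05 and 0.04. Leaving out 1 mouse at a time gave erythroid medians from 0.58 without ALY+LPS mouse 8 to 2.08 without LPS mouse 7, and platelet medians from 0.17 to 0.98 without the same mice. With these 2 libraries left out, 0 genes passed the test and 309 had an unadjusted p below 0.05.

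Beyond Trac and Cd8b1, the genes with the smallest p that were higher were Zfp1, Ddx52, Pex3, Rpl21, Strip2 and Rpl24. Ddx52, an RNA helicase gene of ribosome assembly, was at 14.7, 16.3, 16.7 and 15.9 CPM with LPS and at 18 to 22.3 CPM, median 20.3, with ALY+LPS, with no overlap. The estimate for Ddx52 was 0.35 (0.12 to 0.57; -0.15 without TMM factors), so a rise by 1.5-fold lay just outside the interval. Zfp1 and Pex3, of peroxisome membrane assembly, had estimates of 0.65 and 0.72, also with no overlap. Strip2 had an estimate of 1.15, and the ribosomal protein genes Rpl21 and Rpl24, which have many processed copies in the genome, of 0.84 and 0.94. Beyond E2f7, Kifc5b and Xcl1, those that were lower were Tspoap1, Ccnf, Fanca, Pkmyt1 and Rpusd1. Ccnf, of the cyclin F ubiquitin ligase, Pkmyt1, a kinase that restrains Cdk1, and Fanca, of DNA crosslink repair, had estimates of -1.15, -0.91 and -0.59. Tspoap1 and Rpusd1 had estimates of -1.21 and -0.82.

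Set beside the mice without lipopolysaccharide, on CPM scaled over all 30 libraries, both groups lay together for most lists. The T cell receptor score was 4.65 ± 0.51 (SD, n = 9) with PBS, 4.77 ± 0.36 (SD, n = 10) with ALY688, 2.82 ± 0.33 (SD, n = 4) with LPS and 3.19 ± 0.21 (SD, n = 7) with ALY+LPS. The mitosis score was 0.97 ± 0.37 with PBS, 1.13 ± 0.53 with ALY688, 3.02 ± 0.67 with LPS and 2.51 ± 0.28 with ALY+LPS. For Trac the highest ALY+LPS mouse, at 12.4 CPM on this scale, exceeded only the lowest PBS mouse, at 9.88 CPM, and no ALY688 mouse, the lowest of which was at 22.9 CPM. The PBS mean was 28.2 ± 9.08 CPM (SD, n = 9). For Aurkb the lowest ALY+LPS mouse, at 2.54 CPM, exceeded the highest PBS mouse, at 2.30 CPM, but not the highest ALY688 mouse, at 3.80 CPM. The series text describes the mice with and without lipopolysaccharide apart, as 2 undertakings, so those levels are set side by side with no test.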

How the data were processed

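The authors deposited read counts as whole numbers for each gene, without normalization, 1 table a mouse, each listing 54532 gene IDs. The submitters' processing notes name HISAT2 2.0.5 as aligner and featureCounts 1.5.0-p3 as counter. Build, annotation and strand setting: not given in the sources used here. Symbols came from GENCODE M21 and matched 54409 IDs; promoters came from RefSeq (GRCm38.p6), for which the first listed start of a gene was used.

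The 7 ALY+LPS and 4 LPS libraries were fitted alone, without covariates, with TMM factors, filterByExpr and the robust quasi-likelihood fit and two-sided F-test of edgeR 4.0.16 under R 4.3.3. Standard errors are the fold change over the square root of F, and intervals use its degrees of freedom. The fit and intervals were tried on counts simulated from the fitted model itself, with independent genes. That trial cannot show how the intervals hold where mice differ in cell mixture. DESeq2 1.42.0 and limma 3.58.1 (voom) were alternatives, with other scalings, filters and left-out mice. Scores are means of log2 CPM with a prior count of 2.

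Genes were named by rule: the 8 with the smallest unadjusted p in each direction (no predicted genes, at least 1 CPM in a group), 4 members per T cell, NK and cell cycle list and up to 2 per other list by p, and a fixed set; a few items are not reported here. Members and lists were chosen with earlier results of these data known. Labels give each library as 1 mouse. Replicate numbers 6, 7 and 8 occur in both groups, but the deviations of same-numbered mice correlated at -0.38, -0.51 and 0.13, so they were not treated as pairs.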

Additional observations from a re-analysis of the deposited data

Results flagged for a closer look

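Within a group, 13 of 202 sets of values held 1 mouse farther from the rest than Dixon's 95% limit allows, where chance alone would give about 10.1. Among the LPS mice, mouse 6 stood above the others for 3 lymphocyte genes, with Gzma at 360 CPM (next 249), Klre1 at 28.5 CPM (next 17.1) and Tnfrsf9 at 16.9 CPM (next 8.00). LPS mouse 2 stood above the others for Prtn3, at 84.2 CPM (next 4.82), and LPS mouse 7 for Clec9a, at 1.82 CPM (next 0.858).

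Among the ALY+LPS mice, mouse 8, the library with the largest globin share, stood apart for 5 genes. Adipor1 was at 7110 CPM (next 3231), Ube2c at 2613 CPM (next 1160), Nusap1 at 379 CPM (next 177) and Clec9a at 4.21 CPM (next 2.34), while Tlr4 was lowest there, at 20.4 CPM (next 30.5). ALY+LPS mouse 6 stood above the others for Gtse1, at 64.0 CPM (next 30.8). ALY+LPS mouse 4 had the lowest neutrophil score, 7.32 (next 8.01), and the highest S1pr1, 37.6 CPM (next 19.0), beside the highest B cell score. The part of cell composition in these values was not tested.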

How the results depend on the processing

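No gene passed an adjusted p below 0.05 under any of the 22 alternatives run: DESeq2, limma-voom, other scalings, no low-count filter, all 4 groups in 1 fit, the globin percentage as a covariate, a replicate block, without ALY+LPS mice 6 and 8, and without each mouse in turn. Of 12741 genes tested, an unadjusted p below 0.05 was found for 635 with DESeq2 and 308 with the globin covariate. It was found for 49 with the block and 309 without ALY+LPS mice 6 and 8, of as many tested. Without the filter it was found for 1163 of 24933. Without LPS replicate 2 it was found for 227 of 12899, without LPS replicate 6 for 230 of 12833 and without LPS replicate 7 for 1114 of 13058. The share of intervals within 2-fold was 2.70% without TMM factors, 41.2% without the filter and 29.7% with the replicate block, whose numbers did not pair the mice. Without TMM factors the medians of the T cell lists were -0.12 (receptor), -0.35 (signalling), -0.032 (naive) and -0.38 (activated), and those of NK receptors, the E2F family, DNA replication, mitosis and G1 were -0.73, -0.71, -1.07, -1.34 and -0.54; the median of all genes was -0.49. With the block the medians were -0.0213 for T cell signalling, -0.21 for activated and regulatory T cell genes (6 higher, 8 lower) and 0.29 for naive T cell factors. The cause of these shifts was not tested.

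None of the genes that follow was called, and each changed sign in the setting named. Without TMM factors the log2 fold changes were -0.12 for Cd3e, -0.11 for Cd4, -0.03 for Cd8a and Tcf7, -0.23 for Tnf, -0.19 for Cxcl10, -0.15 for Ddx52 and Il1b, -0.22 for Il10 and Tlr4, -0.29 for Gtse1 and -0.56 for Smc4. With the globin covariate they were -0.26 for Adipor1, 0.06 for Gzma, 0.13 for Klrb1c, -0.50 for Gtse1, -0.08 for Nusap1, -0.38 for Pttg1 and -0.55 for Ube2c. With limma-voom they were -0.15 for Il10 and -0.01 for Tnf, and with the replicate block -0.10 for Tlr4. Without ALY+LPS mice 6 and 8 they were -0.04 for Adipor1, 0.04 for Adipor2, -0.31 for Gtse1, -0.19 for Pttg1 and -0.23 for Ube2c. Leaving out 1 mouse at a time gave values from -0.11 to 0.14 for Adipor2, from -0.07 to 0.65 for Gtse1, from -0.14 to 0.38 for Il10, from -0.06 to 0.40 for Il1b, from -0.45 to 0.00 for Klrb1c, from -0.05 to 0.59 for Lcn2, from -0.07 to 0.16 for Smc4, from -0.06 to 0.33 for Tlr4 and from -0.19 to 0.26 for Tnf. Among levels of expression, the median half-width was largest for genes under 1 CPM, at 1.11 on the log2 scale. It was larger still for the erythroid, globin and platelet lists, at 1.96, 1.93 and 1.23. The parts of depth and of variation between mice in these widths were not tested.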

Other observations

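Genes of glucocorticoid response, which includes the leucine zipper gene Tsc22d3 and the phosphatase gene Dusp1, were estimated higher in 11 of 14 tested members, with a median log2 fold change of 0.31 (-0.19 without TMM factors), and none passed the test. The median was 0.12 without LPS mouse 2, 0.19 without LPS mouse 6, 0.11 without ALY+LPS mouse 1 and 0.15 without ALY+LPS mouse 3, and -0.10, with 6 of 14 higher, with the replicate number as a block. Tsc22d3 was at 99.8, 119, 269 and 238 CPM in LPS mice 2, 6, 7 and 8 and at 145 to 315 CPM in the ALY+LPS mice, an estimate of 0.42 (95% interval -0.26 to 1.10). LPS mice 2 and 6 were the 2 lowest of the 11 mice for Tsc22d3. The same 2 mice were the 2 highest for 11.8% of all genes tested, and the share with them lowest was not counted. A link of Tsc22d3 to the mitotic scores was not tested.

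Plasma cell genes were estimated higher in 7 of 11 tested members, with a median of 0.15 (-0.28 without TMM factors, -0.09 with the replicate block and -0.21 without ALY+LPS mouse 7). The member with the smallest p lay the other way. Ighg2c, an antibody heavy chain gene of plasma cells, was at 2.20 and 2.15 CPM in LPS mice 2 and 6 and at most 0.697 CPM in the other 9 mice, an estimate of -2.30 (95% interval -3.79 to -0.80). Its copies are close to those of other heavy chain genes, so the value is uncertain. Of 13 tested dendritic cell genes 4 were estimated higher and 9 lower, with a median of -0.18 (-0.65 without TMM factors). The median was 0.18 without LPS mouse 2, and 0.28 with the globin covariate, where 11 of the 13 were higher. Itgax had an estimate of -0.45 and Clec9a, of cross-presenting cells, of 0.94. Clec9a was highest in ALY+LPS mouse 8, at 4.21 CPM (next 2.34 CPM among the ALY+LPS mice).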
